A study of Mus musculus with 12 samples.

Results

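Glucose uptake, glycolysis and the response to low oxygen share many genes, and 36 gene symbols from these pathways were followed in mouse pre-T cells. The symbols were chosen by name, with earlier results of these data known. Of the 36, 35 are listed among the 23366 gene symbols of each deposited table. The missing symbol is Pkm2, an older name for pyruvate kinase M, which is listed as Pkm. Their transcripts were sequenced, after removal of ribosomal RNA, from Beko cells, a mouse line at the pre-T stage of thymocyte development, grown in medium with insulin. In the first experiment, cells received 10 µg/ml DAPT for 24 h (2 libraries), with DMSO for 24 h as the control (2 libraries). DAPT is a gamma-secretase inhibitor (GSI), which blocks the cleavage that activates Notch receptors. In the second, apicidin, an inhibitor of histone deacetylases, was given at 0.01 µg/ml for 24 h (2 libraries), with their own DMSO controls (2 libraries). In the third, cells infected with plasmids for an shRNA against Hdac3 were compared with cells infected with a scrambled (SCR) hairpin, 96 h after puromycin (2 libraries each). The descriptions of the Hdac3 libraries name 1 hairpin, Sh1, so an effect of the hairpin beyond Hdac3 cannot be told apart from loss of Hdac3. The histone deacetylase HDAC3 is a corepressor subunit, and the study asked how it acts at Notch target genes.

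Glycolysis turns glucose into pyruvate in the cytosol. Glucose enters through transporters of the SLC2A family, is phosphorylated by hexokinases, is committed by phosphofructokinase, and leaves as lactate through lactate dehydrogenase and the monocarboxylate transporters when pyruvate is not passed to mitochondria. Thymocytes at the pre-T stage divide rapidly, and Notch signalling is known to sustain their glucose metabolism. Many of the same genes are also targets of hypoxia-inducible factor (HIF), whose alpha subunit is marked for destruction by the prolyl hydroxylases that the Egln genes encode, when oxygen is present. Some HIF targets, such as Egln3 and Ankrd37, have no part in glycolysis and serve as reporters of the factor.

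HIF binds a short core in DNA, ACGTG or GCGTG, and Myc binds the E-box CACGTG, which itself contains ACGTG. The promoters of 4 members are shown because their genes changed in different ways in the experiments below: Ankrd37, the member with the largest fall after the Hdac3 hairpin, Bnip3 and Hk2, which moved in opposite directions with the hairpin and with apicidin, and Ldha, which fell with DAPT and passed in neither other comparison. Each is the 250 bases before the first listed start site in RefSeq (GRCm38.p6), written 5′ to 3′ on the strand of the gene, and capitals mark every core on either strand (CACGT and CACGC are the cores of the other strand). The stretches are chr8:45999851-46000100, minus strand, for Ankrd37, chr7:138909507-138909756, minus strand, for Bnip3, chr6:82774455-82774704, minus strand, for Hk2, and chr7:46845554-46845803, plus strand, for Ldha.
Ankrd37: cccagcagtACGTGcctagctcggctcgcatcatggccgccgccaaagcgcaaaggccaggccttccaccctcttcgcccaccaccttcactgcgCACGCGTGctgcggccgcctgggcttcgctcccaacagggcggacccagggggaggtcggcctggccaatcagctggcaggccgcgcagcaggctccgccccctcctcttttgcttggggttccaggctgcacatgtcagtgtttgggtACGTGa
Bnip3: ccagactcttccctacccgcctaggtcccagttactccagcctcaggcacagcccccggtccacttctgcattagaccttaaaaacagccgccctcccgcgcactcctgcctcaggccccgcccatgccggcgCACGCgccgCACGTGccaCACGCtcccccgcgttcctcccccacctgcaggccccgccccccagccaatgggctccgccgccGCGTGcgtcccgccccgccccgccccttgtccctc
Hk2: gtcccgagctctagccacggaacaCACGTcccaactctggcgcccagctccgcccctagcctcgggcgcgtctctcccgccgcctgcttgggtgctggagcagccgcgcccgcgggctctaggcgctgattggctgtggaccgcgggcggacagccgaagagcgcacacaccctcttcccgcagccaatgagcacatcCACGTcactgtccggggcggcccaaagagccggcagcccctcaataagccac
Ldha: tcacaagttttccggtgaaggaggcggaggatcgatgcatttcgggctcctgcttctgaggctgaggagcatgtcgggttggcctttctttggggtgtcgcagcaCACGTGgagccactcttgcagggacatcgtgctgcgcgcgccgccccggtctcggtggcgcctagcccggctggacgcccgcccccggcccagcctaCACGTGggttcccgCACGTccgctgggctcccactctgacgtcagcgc
Ankrd37 holds 4 cores, Bnip3 holds 5 with 1 E-box, Hk2 holds 2 and Ldha holds 5, with 2 E-boxes that account for 4 of them. Of the 33 members with a promoter entry, 26 (78.8%) had at least 1 core at their first start, against 38.6% of all 32851 promoters in the table and 56.95% of the 8941 genes with an entry that were tested in all 3 comparisons. For the E-box the shares were 15.2% of members (5 of 33), 6.02% of all promoters and 8.43% of the tested genes. A core match is a run of letters and does not show that a factor binds there.

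Sequencing depth, counted as reads assigned to gene symbols, was 37237080 to 42815304 per library in the DAPT experiment, 21766984 to 29652001 in the apicidin experiment and 24673559 to 29004315 in the hairpin experiment. All 10 pre-T cell markers were present in every library, but their sum moved with each treatment. It was 116412 and 118268 normalized reads with DAPT, against 167174 and 170443 with DMSO, 70502 and 69669.9 with apicidin, against 105082 and 105324 with DMSO, and 86659 and 87163 in shHdac3 libraries, against 114789 and 114620 in scrambled libraries. The 6 myeloid markers, nearly all Itgam, summed to 536 and 472 with DAPT, against 242 and 247 with DMSO, to 799.8 and 752 with apicidin, against 536 and 509 with DMSO, and to 407 and 379.7 in shHdac3 libraries, against 374 and 394 in scrambled libraries. Lyz2 reached at most 9.19 and Mpo 5.55. The 5 stromal markers, nearly all Pdgfrb, summed to 1161 and 1102 with DAPT, against 1213 and 1201 with DMSO, to 1929 and 1894 with apicidin, against 1461 and 1460.1 with DMSO, and to 1989 and 2010.4 in shHdac3 libraries, against 1222 and 1230.4 in scrambled libraries. Col3a1 and Pdgfra stayed under 3. B cell and erythroid markers summed to at most 23.5 and 248, with Ms4a1, Pax5, Hba-a1 and Hbb-b1 at 0 in every library. The part of these shifts in the results below was not tested. Hdac3, the gene that the hairpin targets, had 774 and 819 in shHdac3 libraries, against 2012 and 1930.1 in scrambled libraries. The labels leave unsaid whether the 2 replicates of a group are separate cultures, and each p-value rests on a spread between libraries that may be technical. In bulk RNA, fewer cells with a transcript and less transcript per cell cannot be told apart.

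Values below are normalized reads, the deposited reads of a gene divided by a size factor of its library, and each experiment was normalized on its own. Each fold change is log2 of the treated over the control libraries ± its standard error, and a gene rose or fell where the adjusted p of limma, over all genes tested, was under 0.05. A gene was tested where at least 2 of the 4 libraries reached a value of 10. Of the 35 members listed, 34 were tested in the DAPT and hairpin experiments and 35 with apicidin. The exception was Eno1, whose row is almost empty, with at most 15.3 normalized reads in any library. A row named Gm5506 held 16525 to 30502 normalized reads in the 12 libraries, and RefSeq gives Eno1 and Gm5506 together as synonyms of 1 gene, Eno1b, so how enolase 1 reads were divided between rows cannot be told, and Eno1 is not read further.

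With DAPT, most of the glycolytic chain moved down by a small amount and the oxygen sensor genes moved unevenly. Of 34 members tested, 22 fell, 1 rose and 11 did not pass; in that comparison 23.1% of all genes tested fell, 20.1% rose and 43.2% passed in either direction. The median log2 fold change of the members was -0.23, against 0.001 over all genes tested. The 16 glycolytic enzyme genes together took 1.16% and 1.17% of all reads with DAPT, against 1.38% and 1.37% with DMSO. Here and below, the 16 include the nearly empty Eno1 row and leave out Gm5506, so most enolase 1 reads may be missing from these shares. All reads include histone genes, which held 17.5% and 16.8% with DAPT, against 15.9% and 15.4% with DMSO. They also include the Rn45s row, at 1.39% and 1.55%, against 2.39% and 1.48%. How far these moved the enzyme share was not tested. No member fell by more than Hk2, at -0.49 ± 0.04.

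Genes of glucose uptake and trapping were among those that fell. Slc2a1, which encodes the glucose transporter GLUT1, had 5240.1 and 5193 with DAPT, against 6722 and 6395 with DMSO (log2 fold change -0.33 ± 0.04, adjusted p = 2.7e-07). Hk2, a hexokinase that binds mitochondria and is induced in growing cells, had 4226 and 4378 with DAPT, against 5898 and 6159 with DMSO (log2 fold change -0.49 ± 0.04, adjusted p = 8.6e-10). Hk1, the constitutive hexokinase, had 6607 and 7247 with DAPT, against 8188 and 8346 with DMSO (log2 fold change -0.26 ± 0.04, adjusted p = 2.4e-05). For all of these genes both DAPT libraries lay below both DMSO libraries, whereas the second transporter gene, Slc2a3, which encodes GLUT3, had 2163 and 2242 with DAPT, against 2323 and 2333 with DMSO, and did not pass (log2 fold change -0.08 ± 0.04, adjusted p = 0.15).

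Among the phosphofructokinase subunits, which form the committing enzyme, Pfkp had 8323 and 8269 with DAPT, against 11000.3 and 11055 with DMSO (log2 fold change -0.41 ± 0.04, adjusted p = 2.6e-09) and Pfkl had 15187 and 15214 with DAPT, against 17652 and 16781 with DMSO (log2 fold change -0.18 ± 0.04, adjusted p = 3.9e-04). The muscle-type subunit Pfkm did not pass (log2 fold change -0.08 ± 0.04, adjusted p = 0.11). Pfkfb3, which makes the activator of phosphofructokinase, fructose 2,6-bisphosphate, had 2447 and 2422 with DAPT, against 2877 and 3030.1 with DMSO (log2 fold change -0.28 ± 0.04, adjusted p = 1.5e-05). Both DAPT libraries lay below both DMSO libraries for Pfkp, Pfkl and Pfkfb3. Its relative Pfkfb4 (log2 fold change 0.09 ± 0.08, adjusted p = 0.42), the isomerase gene Gpi1 (-0.09 ± 0.04, adjusted p = 0.064) and the aldolase gene Aldoc (0.32 ± 0.31, adjusted p = 0.43) did not pass. The aldolase gene Aldoa (-0.23 ± 0.04) and the triose phosphate isomerase gene Tpi1 (-0.32 ± 0.04) fell.

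The later steps of the pathway, which yield ATP, fell nearly throughout. Gapdh, which encodes glyceraldehyde 3-phosphate dehydrogenase and is often taken as a stable reference, had 89807 and 90415 with DAPT, against 114293 and 110794 with DMSO (log2 fold change -0.32 ± 0.04, adjusted p = 2.2e-06). Pgam1, the phosphoglycerate mutase, had 21851 and 20940.1 with DAPT, against 29003 and 29338 with DMSO (log2 fold change -0.45 ± 0.04, adjusted p = 1.4e-09), and Pkm, the last step, had 117476 and 116780.0 with DAPT, against 143480.0 and 139810.0 with DMSO (log2 fold change -0.27 ± 0.04, adjusted p = 2.8e-05). The DAPT libraries were below the DMSO libraries in each, as they were for the phosphoglycerate kinase gene Pgk1 (-0.29 ± 0.04). Reads of Gapdh, Pgk1, Pkm and Ldha can be shared with near-identical processed pseudogenes, and no source used here says how shared reads were counted. The enolases outside Eno1 are low: Eno3 had 193 and 204 with DAPT, against 271 and 239.9 with DMSO (log2 fold change -0.36 ± 0.11, adjusted p = 0.010), and Eno2 had 60.9 and 57.4 with DAPT, against 47.2 and 33.3 with DMSO and was the only member that rose (log2 fold change 0.56 ± 0.23, adjusted p = 0.048). That rise was lost when any of DAPT replicate 1, DAPT replicate 2 or DMSO replicate 2 was left out (adjusted p = 0.16, 0.090 and 0.35).

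At the exit from glycolysis, Ldha, the lactate dehydrogenase subunit that favours lactate, had 56145 and 56149.6 with DAPT, against 72973 and 71248 with DMSO (log2 fold change -0.36 ± 0.04, adjusted p = 1.3e-07). Slc16a3, which encodes the lactate exporter MCT4, had 1275 and 1344 with DAPT, against 1584 and 1540.0 with DMSO (log2 fold change -0.25 ± 0.05, adjusted p = 2.9e-04). Slc16a1, which encodes the transporter MCT1, had 22389 and 22651 with DAPT, against 21873 and 23014 with DMSO, with overlapping groups (log2 fold change 0.01 ± 0.04, adjusted p = 0.93). Thus 1 of the 2 transporters fell, and the other subunit of lactate dehydrogenase, Ldhb, did not pass (-0.08 ± 0.04, adjusted p = 0.10). Of the pyruvate dehydrogenase kinases, which keep pyruvate out of mitochondria, Pdk1 had 15947 and 15724 with DAPT, against 17624 and 17906 with DMSO (log2 fold change -0.17 ± 0.04, adjusted p = 5.9e-04) and Pdk3 fell as well (-0.21 ± 0.05).

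In the oxygen-sensing group, Hif1a, the regulated subunit of HIF, had 9706 and 9642 with DAPT, against 8814 and 9583 with DMSO, and did not pass (log2 fold change 0.07 ± 0.04, adjusted p = 0.14). Egln1, the main HIF prolyl hydroxylase, had 9342 and 10026 with DAPT, against 11595 and 11984 with DMSO (log2 fold change -0.28 ± 0.04, adjusted p = 3.1e-06), while its relative Egln3 had 14689 and 14819 with DAPT, against 14108 and 14056 with DMSO (log2 fold change 0.07 ± 0.04, adjusted p = 0.13). Both hydroxylase genes are known HIF targets, and Egln1 alone of the pair passed. Among the HIF targets outside glycolysis, Bnip3, a mitophagy receptor, had 7052 and 7195 with DAPT, against 8174 and 8604 with DMSO (log2 fold change -0.24 ± 0.04, adjusted p = 2.3e-05), and Vegfa, the angiogenic growth factor, had 1796 and 1862 with DAPT, against 2261 and 2123 with DMSO (log2 fold change -0.26 ± 0.05, adjusted p = 1.0e-04). Ankrd37 had 633 and 605 with DAPT, against 738 and 712 with DMSO (log2 fold change -0.23 ± 0.07, adjusted p = 0.0079). The DAPT libraries were below the DMSO libraries for each, and Ero1l, an oxidase of disulfide formation, fell by less (-0.13 ± 0.04). Calls were lost without DAPT replicate 2 for Ankrd37 and Pdk3 (adjusted p = 0.079 and 0.078), without DMSO replicate 1 for Eno3 (0.12), and without DAPT replicate 1 or DMSO replicate 2 for Ero1l (up to 0.14). The mitophagy receptor Bnip3l (-0.04 ± 0.04) and the collagen prolyl hydroxylase P4ha1 (-0.01 ± 0.04) did not pass.

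**Figure D1:**
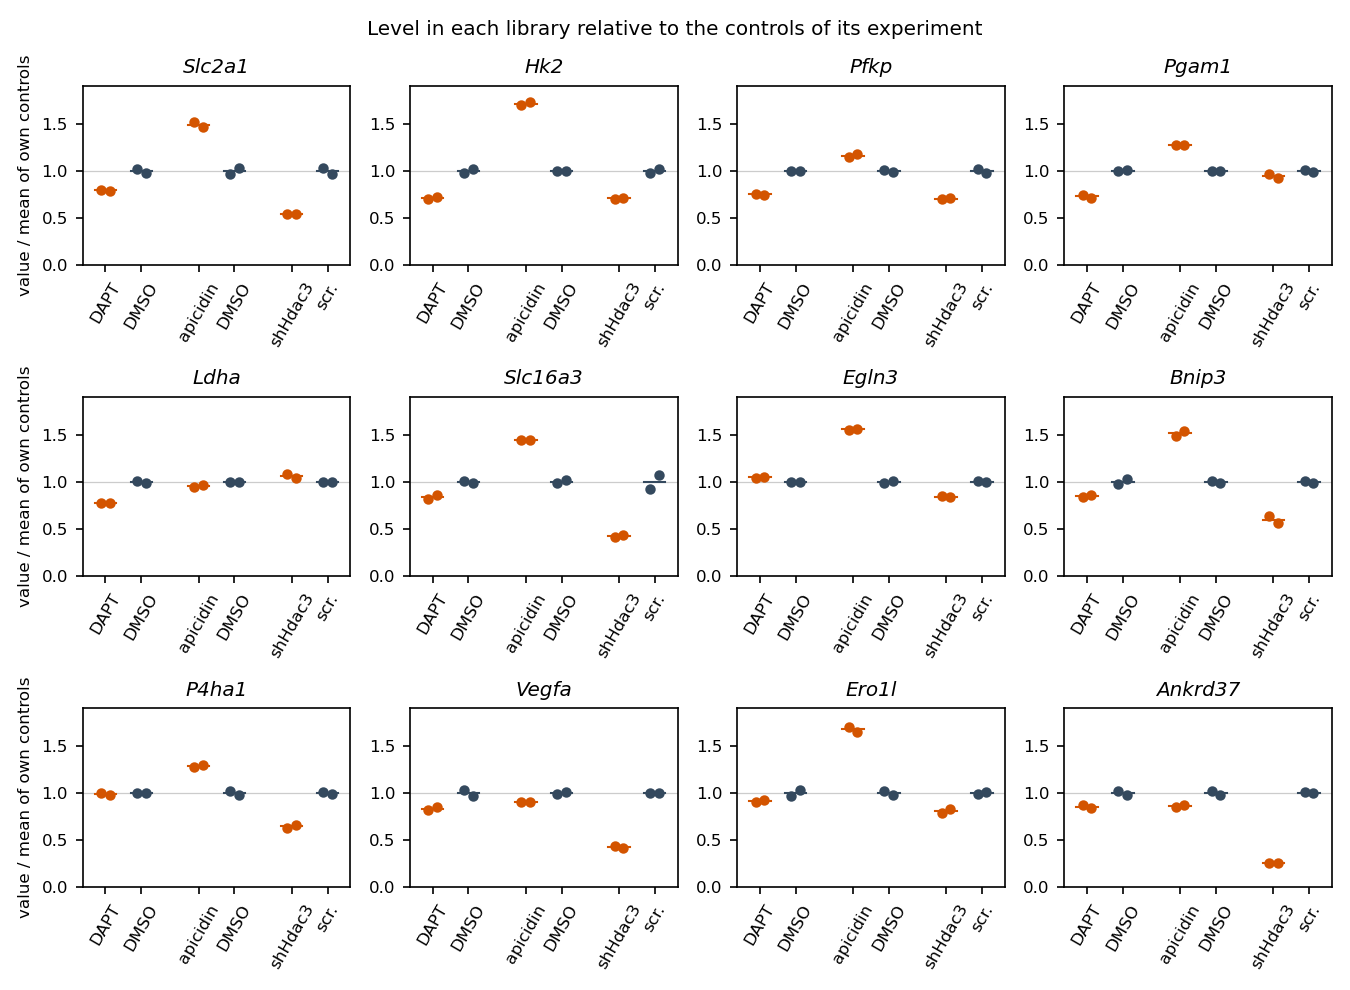
Value of 12 members in each library divided by the mean of the controls of its experiment, on a linear axis that starts at 0. Orange points are treated libraries, dark points controls and short lines group means (n = 2 each). Hk2, Slc2a1 and Bnip3 lie below 1 with DAPT and shHdac3 and above 1 with apicidin, and Ankrd37 is lowest with shHdac3.

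With apicidin, both glucose transporter genes, Hk2 and Egln3 rose, while most enzyme genes did not pass. Of the hypoxia genes Bnip3, Bnip3l, Vegfa, Ero1l, P4ha1 and Ankrd37, 4 of 6 rose. Of 35 members tested, 12 rose, 4 fell and 19 did not pass; over all genes tested 18.2% rose, 19.9% fell and 38.1% passed in either direction. The median log2 fold change of members was 0.05, against 0.002 over all genes tested. The 6 members with the largest called changes, Hk2, Ero1l, Eno2, Egln3, Slc2a3 and Bnip3, all rose, by 0.60 to 0.78 on the log2 scale. Of all reads, the 16 enzyme genes made up 1.72% and 1.67% in apicidin libraries and 1.62% and 1.60% in their controls. The total includes histone genes, which held 17.0% and 17.6% of reads in apicidin libraries and 17.9% and 20.3% in controls. The total also includes Rn45s, at 2.08% and 2.55%, against 2.74% and 3.18%. How far these lower shares moved the enzyme share was not tested. On normalized reads 4 of the 16 rose, 1 fell and 11 did not pass. The larger share is therefore not read as a rise of the group.

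Both glucose transporter genes rose. Slc2a1 had 1903 and 1841 with apicidin, against 1218 and 1294 with DMSO (log2 fold change 0.58 ± 0.05, adjusted p = 8.5e-08) and Slc2a3 had 2023 and 1939.9 with apicidin, against 1287 and 1263 with DMSO (log2 fold change 0.64 ± 0.05, adjusted p = 1.5e-08). The largest rise of all members was in Hk2, with 2966 and 3015 with apicidin, against 1749.8 and 1742 with DMSO (log2 fold change 0.78 ± 0.04, adjusted p = 3.0e-10). Each apicidin library was above each DMSO library for these genes, while Hk1 had 3840.4 and 3859 with apicidin, against 3631 and 3789 with DMSO (log2 fold change 0.05 ± 0.04, adjusted p = 0.33). Hence of the 2 hexokinases the inducible one passed.

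Further down, Pfkp had 4585 and 4727 with apicidin, against 4039 and 3972 with DMSO and rose (log2 fold change 0.22 ± 0.04, adjusted p = 4.6e-04). Pfkl had 7034 and 6871 with apicidin, against 7115 and 7239 with DMSO (log2 fold change -0.05 ± 0.04, adjusted p = 0.40), and Pfkfb3 had 1373 and 1422 with apicidin, against 1286 and 1290.5 with DMSO (log2 fold change 0.12 ± 0.05, adjusted p = 0.069). Neither of the last pair passed, although both apicidin libraries of Pfkfb3 were above both DMSO libraries. Pgam1 had 12450.0 and 12503 with apicidin, against 9768 and 9807 with DMSO (log2 fold change 0.35 ± 0.04, adjusted p = 4.7e-06), and Eno2 had 84.2 and 94.6 with apicidin, against 61.4 and 50.1 with DMSO (log2 fold change 0.68 ± 0.19, adjusted p = 0.0084, or 0.068 without apicidin replicate 2). Against this direction, Tpi1 had 15274 and 15644 with apicidin, against 21496 and 20987 with DMSO and fell (log2 fold change -0.46 ± 0.05, adjusted p = 6.6e-07). Tpi1 was the one glycolytic enzyme gene that fell, and its groups do not overlap.

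The enzyme genes with the most reads per kilobase did not pass. Gapdh had 88251 and 86642 with apicidin, against 90116 and 92249.8 with DMSO (log2 fold change -0.06 ± 0.07, adjusted p = 0.55), and Pkm had 97361 and 96388 with apicidin, against 103340.0 and 107930.0 with DMSO (log2 fold change -0.12 ± 0.08, adjusted p = 0.22). Ldha had 37548 and 38647 with apicidin, against 39911 and 39793 with DMSO (log2 fold change -0.07 ± 0.06, adjusted p = 0.38). Their treated libraries lay slightly below the controls in each case, by less than the test resolves. Gpi1, Pfkm, Pfkfb4, Aldoa, Aldoc, Pgk1, Eno3 and Ldhb also did not pass, between -0.51 ± 0.35 (Aldoc) and 0.17 ± 0.07 (Aldoa). Aldoa was at the threshold (adjusted p = 0.050) and passed with DESeq2 (adjusted p = 0.0025).

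Lactate export split between its transporters again. Slc16a3 had 688 and 686 with apicidin, against 468 and 483 with DMSO (log2 fold change 0.53 ± 0.07, adjusted p = 8.3e-06), and Slc16a1 had 11144 and 11574 with apicidin, against 10794 and 11283 with DMSO (log2 fold change 0.04 ± 0.04, adjusted p = 0.49). Pdk1 had 6917 and 6934 with apicidin, against 6701 and 6847 with DMSO (log2 fold change 0.03 ± 0.04, adjusted p = 0.57). Of these genes only Slc16a3 passed, and Pdk3 fell by a little (-0.13 ± 0.05, adjusted p = 0.046), a call lost without DMSO replicate 2 or either apicidin replicate.

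In the oxygen-sensing group, Egln3 had 9527 and 9604 with apicidin, against 6089 and 6203 with DMSO (log2 fold change 0.64 ± 0.04, adjusted p = 2.0e-09), while Egln1 had 3642 and 3652 with apicidin, against 3556 and 3608 with DMSO (log2 fold change 0.03 ± 0.04, adjusted p = 0.65) and Hif1a had 4498 and 4339 with apicidin, against 4678 and 4520.2 with DMSO (log2 fold change -0.06 ± 0.04, adjusted p = 0.30). So Egln3 rose without a detected change in the transcripts of Egln1 or Hif1a. Of further HIF pathway genes outside the members, Arnt (-0.16 ± 0.06, adjusted p = 0.045) and Egln2 (-0.24 ± 0.05) fell. Hif1an rose (0.30 ± 0.05), and Vhl and Epas1 did not pass. Ero1l had 3429 and 3328 with apicidin, against 2059.9 and 1975 with DMSO (log2 fold change 0.74 ± 0.04, adjusted p = 6.7e-10), and Bnip3 had 1620.4 and 1684 with apicidin, against 1101 and 1081 with DMSO (log2 fold change 0.60 ± 0.05, adjusted p = 5.1e-08). P4ha1 (0.36 ± 0.04) and Bnip3l (0.23 ± 0.04) rose too, with no overlap between groups. Vegfa had 1280.1 and 1287 with apicidin, against 1401 and 1433 with DMSO (log2 fold change -0.14 ± 0.05, adjusted p = 0.028), and Ankrd37 had 409 and 418 with apicidin, against 489.7 and 468 with DMSO (log2 fold change -0.21 ± 0.08, adjusted p = 0.037). These HIF targets fell where others rose, but both calls were lost when either apicidin replicate or 1 DMSO replicate was left out (largest adjusted p 0.13 for Vegfa and 0.16 for Ankrd37) and with DESeq2 (0.22 and 0.27).

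With the Hdac3 hairpin, the largest falls were in the HIF targets Ankrd37 and Vegfa, the low enolase gene Eno2, the lactate exporter gene Slc16a3 and the transporter gene Slc2a1, while 4 of 6 lower glycolytic enzyme genes did not pass. Of 34 members tested, 23 fell, 1 rose and 10 did not pass; over all genes tested 19.4% fell, 22.5% rose and 41.9% passed in either direction. The split of all calls in this experiment moved with the scaling: 53.8% of called genes were higher, and 43.5% with upper-quartile factors, under which 0 members rose. The median log2 fold change of members was -0.27, against 0.0002 over all genes tested. Of the upper enzymes, 8 of 9 fell, and of the lower enzymes 2 of 6. The 16 enzyme genes took 1.17% of reads in both shHdac3 libraries, against 1.27% and 1.26% with the scrambled hairpin.

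Ankrd37, a small ankyrin-repeat protein used as a HIF reporter, had 132 and 132 in shHdac3 libraries, against 512 and 507 in scrambled libraries (log2 fold change -1.94 ± 0.10, adjusted p = 4.7e-21). Vegfa had 677 and 646 in shHdac3 libraries, against 1552 and 1548 in scrambled libraries (log2 fold change -1.23 ± 0.06, adjusted p = 7.6e-23). Bnip3 had 526 and 463 in shHdac3 libraries, against 835 and 819.7 in scrambled libraries (log2 fold change -0.74 ± 0.07, adjusted p = 3.8e-12). All of these libraries with the hairpin were well below all libraries with the scrambled hairpin, and the fall of Ankrd37 was the largest of any member in any comparison. P4ha1 (-0.63 ± 0.05) and Ero1l (-0.32 ± 0.05) fell by less, and Bnip3l did not pass (0.03 ± 0.05, adjusted p = 0.62). Egln1 had 2202 and 2089 in shHdac3 libraries, against 2653 and 2756 in scrambled libraries (log2 fold change -0.33 ± 0.05, adjusted p = 1.3e-07) and Egln3 had 4512 and 4409.9 in shHdac3 libraries, against 5307 and 5256 in scrambled libraries (log2 fold change -0.24 ± 0.04, adjusted p = 1.2e-05), while Hif1a had 5429.5 and 5273 in shHdac3 libraries, against 4947 and 5274 in scrambled libraries (log2 fold change 0.07 ± 0.05, adjusted p = 0.24). The targets fell without a detected change in the transcript of the HIF subunit.

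Some of these rows lie across genes on the other strand. In GENCODE M21, 27.2% of the exonic bases of Bnip3, 26.2% of Ankrd37, 17.4% of Pfkp and 12.3% of Gpi1 overlap an exon on the opposite strand. The kit marks strand, but whether counting used it is not stated in any source used here, so reads of an opposite gene cannot be told apart in those stretches. Vegfa, Slc2a3, Hk2, Slc16a3, Ero1l, P4ha1, Egln1 and Egln3 have no such overlap.

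At glucose entry, Slc2a1 had 646 and 644 in shHdac3 libraries, against 1219 and 1140.5 in scrambled libraries (log2 fold change -0.87 ± 0.06, adjusted p = 2.1e-16) and Slc2a3 had 526 and 495 in shHdac3 libraries, against 644 and 594 in scrambled libraries (log2 fold change -0.28 ± 0.07, adjusted p = 0.0019, or 0.057 without scrambled replicate 1). Hk2 had 893 and 913 in shHdac3 libraries, against 1254 and 1298 in scrambled libraries (log2 fold change -0.50 ± 0.06, adjusted p = 5.9e-10), and Hk1 had 2900.4 and 2901 in shHdac3 libraries, against 3509 and 3484 in scrambled libraries (log2 fold change -0.27 ± 0.05, adjusted p = 3.2e-06). Both transporters and both hexokinases were thus lower in each shHdac3 library than in each scrambled library. Pfkp had 1960.3 and 2016 in shHdac3 libraries, against 2878 and 2744 in scrambled libraries (log2 fold change -0.50 ± 0.05, adjusted p = 3.6e-12), and Pfkl had 5302 and 5205 in shHdac3 libraries, against 5819 and 6026 in scrambled libraries (log2 fold change -0.17 ± 0.04, adjusted p = 0.0013). Pfkfb3 had 768 and 745 in shHdac3 libraries, against 1194 and 1205 in scrambled libraries (log2 fold change -0.66 ± 0.06, adjusted p = 4.1e-13). All 3 phosphofructokinase subunits fell, since Pfkm did too (-0.39 ± 0.05), as did Gpi1 (-0.38 ± 0.05), Aldoa (-0.25 ± 0.06) and Tpi1 (-0.21 ± 0.05), while Pfkfb4 (-0.14 ± 0.11) and Aldoc (0.56 ± 0.41) did not pass.

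Lower in the pathway, Gapdh had 74796 and 71423 in shHdac3 libraries, against 76685 and 74684 in scrambled libraries (log2 fold change -0.05 ± 0.07, adjusted p = 0.60). Pkm had 87199.6 and 85068 in shHdac3 libraries, against 85982 and 86201 in scrambled libraries (log2 fold change 0.0006 ± 0.07, adjusted p = 1.0), and Ldha had 34479 and 33140.2 in shHdac3 libraries, against 31598 and 31764 in scrambled libraries (log2 fold change 0.09 ± 0.06, adjusted p = 0.18). None of these abundant transcripts passed, in contrast to DAPT, and Pgam1 (-0.08 ± 0.05) and Eno3 (0.19 ± 0.13) did not pass either. Eno2, at low levels, had 22.6 and 17.7 in shHdac3 libraries, against 68.4 and 67.2 in scrambled libraries (log2 fold change -1.71 ± 0.26, adjusted p = 6.5e-07). Pgk1 fell (-0.15 ± 0.06, adjusted p = 0.040), a call lost whichever library was left out (adjusted p up to 0.28).

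Export and diversion of pyruvate also split. Slc16a3 had 109 and 114 in shHdac3 libraries, against 242 and 283 in scrambled libraries (log2 fold change -1.22 ± 0.13, adjusted p = 6.1e-11), whereas Slc16a1 had 11394 and 10874 in shHdac3 libraries, against 10261 and 10355 in scrambled libraries and was the only member that rose (log2 fold change 0.11 ± 0.05, adjusted p = 0.048). The rise of Slc16a1 was lost without scrambled replicate 1, scrambled replicate 2 or shHdac3 replicate 1 (adjusted p up to 0.33). Pdk1 had 4265 and 4135 in shHdac3 libraries, against 5152 and 5317 in scrambled libraries (log2 fold change -0.32 ± 0.04, adjusted p = 8.5e-08), while Pdk3 did not pass (-0.03 ± 0.06). Ldhb fell (-0.27 ± 0.05).

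**Figure D2:**
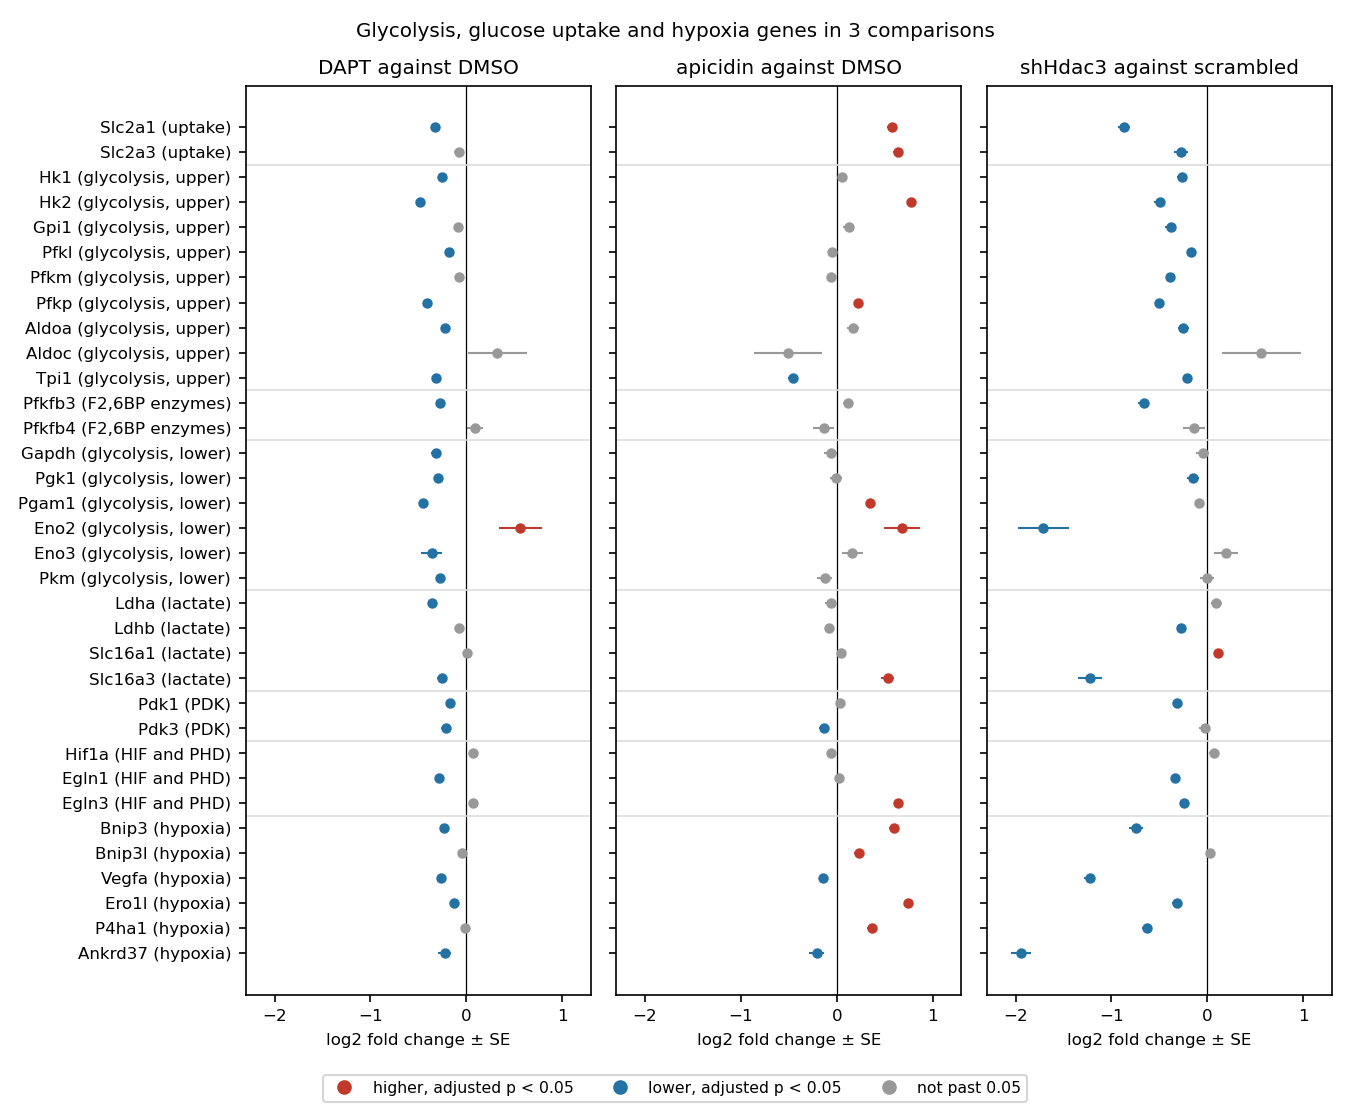
Log2 fold change (x axis) of 34 members, grouped by role, in the 3 comparisons, each treated over control. Points are limma estimates, bars standard errors, red higher, blue lower and grey not past an adjusted p of 0.05. Most points are blue with DAPT and shHdac3. The red points with apicidin are Slc2a1, Slc2a3, Hk2, Pfkp, Pgam1, Eno2, Slc16a3, Egln3, Bnip3, Bnip3l, Ero1l and P4ha1.

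**Figure D3:**
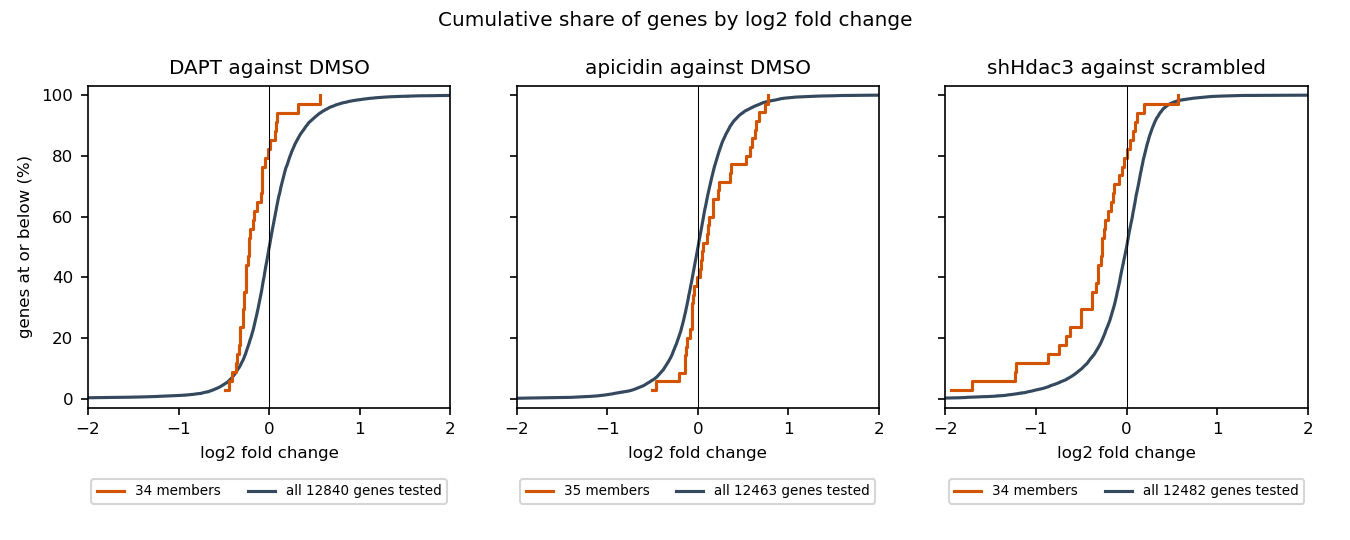
Share of genes (y axis, percent) at or below each log2 fold change (x axis, drawn from -2 to 2) for the members tested and for all genes tested. The median of members is -0.23 with DAPT, 0.05 with apicidin and -0.27 with shHdac3, and the left tail of members is longest with shHdac3.

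Read across the experiments, 6 members (Slc2a1, Hk2, Pfkp, Slc16a3, Bnip3 and Ero1l) fell with DAPT and with the Hdac3 hairpin and rose with apicidin. A further 3 (Slc2a3, Egln3 and P4ha1) rose with apicidin and fell with the hairpin without passing with DAPT. Eno2 rose with both drugs and fell with the hairpin, but neither rise held in every fit that left out a library. Of 34 members, 10 rose with apicidin and fell with the hairpin, against 2.51% of the 12233 genes tested in both. A set of 3 (Tpi1, Vegfa and Ankrd37) fell with both, against 7.15%. The apicidin calls of Vegfa and Ankrd37 were lost with DESeq2, as given above. With DAPT and with the hairpin 16 of 34 members fell, against 3.72% of the 12388 genes tested in both, and 1, Eno2, had opposite calls, against 15.4%. Gapdh, Pkm, Ldha and Eno3 passed with DAPT and in neither other comparison, and Bnip3l with apicidin and in neither other. With the hairpin alone, Gpi1, Pfkm and Ldhb fell and Slc16a1 rose. Hif1a, Pfkfb4 and Aldoc passed in no comparison.

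Differences between responses were tested in 1 fit of all 12 libraries, in which no 2 experiments share controls, although exposure (24 h of a drug, 96 h after selection for a hairpin) differs with the treatment. Each difference is between log2 fold changes, ± its standard error. The apicidin response was above the shHdac3 response for 22 of 35 members and below it for 1, Tpi1 (over all genes 33.4% passed, 15.1% above and 18.3% below). Slc2a1 differed by 1.45 ± 0.07 (95% interval 1.31 to 1.59, adjusted p = 7.9e-14), Hk2 by 1.28 ± 0.06 (95% interval 1.15 to 1.40, adjusted p = 2.2e-13) and Bnip3 by 1.35 ± 0.07 (95% interval 1.19 to 1.5, adjusted p = 2.9e-12). Ero1l differed by 1.06 ± 0.06 (95% interval 0.94 to 1.19, adjusted p = 8.2e-12), P4ha1 by 0.99 ± 0.06 (95% interval 0.88 to 1.11, adjusted p = 5.8e-12) and Egln3 by 0.89 ± 0.05 (95% interval 0.78 to 0.99, adjusted p = 6.9e-12). These 6 had the smallest adjusted p among members. Eno2, at low levels, differed by more, 2.40 ± 0.31, adjusted p = 2.7e-06, as did the lactate exporter gene Slc16a3, 1.76 ± 0.11, adjusted p = 1.4e-11. Vegfa and Ankrd37, which fell in both in the main test, also differed in size, by 1.09 ± 0.07 (95% interval 0.95 to 1.23, adjusted p = 2.4e-11) and 1.74 ± 0.10 (95% interval 1.52 to 1.95, adjusted p = 1.1e-11). Gapdh differed by -0.01 ± 0.07 (95% interval -0.16 to 0.15, adjusted p = 0.96) and Pkm by -0.12 ± 0.08 (95% interval -0.28 to 0.04, adjusted p = 0.24), intervals that include 0. Of the genes called with the hairpin alone, Gpi1 (0.51 ± 0.06, adjusted p = 1.1e-06), Pfkm (0.33 ± 0.06, adjusted p = 2.5e-04) and Ldhb (0.19 ± 0.06, adjusted p = 0.022) differed. The Ldhb difference did not hold under every processing alternative. The difference of Slc16a1, also called with the hairpin alone, did not pass (-0.07 ± 0.06, adjusted p = 0.42).

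**Figure D4:**
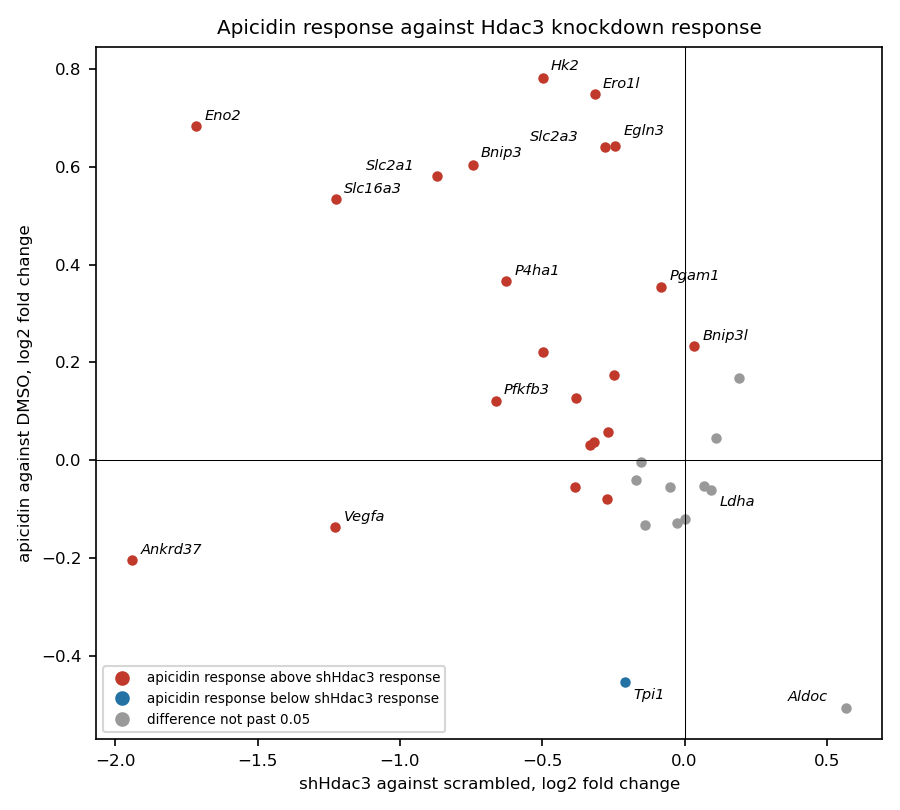
Log2 fold change of 34 members with apicidin (y axis) against that with shHdac3 (x axis). Colours give the test of the difference between responses. The upper left holds members such as Hk2, Slc2a1 and Bnip3, whose apicidin response was above their shHdac3 response, and Tpi1 is the one member below.

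The DAPT response was below the apicidin response for 22 of 35 members and above it for none (over all genes 34.8% passed, 18.8% below and 16.0% above). Hk2 differed by -1.27 ± 0.06 (95% interval -1.40 to -1.15, adjusted p = 1.8e-13), Slc2a1 by -0.92 ± 0.07 (95% interval -1.05 to -0.78, adjusted p = 2.3e-10) and Ero1l by -0.88 ± 0.06 (95% interval -1.01 to -0.76, adjusted p = 1.7e-10). Bnip3 differed by -0.85 ± 0.07 (95% interval -1.0 to -0.69, adjusted p = 5.4e-09), Pgam1 by -0.81 ± 0.06 (95% interval -0.92 to -0.69, adjusted p = 1.1e-10) and Pfkp by -0.64 ± 0.05 (95% interval -0.75 to -0.53, adjusted p = 4.3e-09). Of the genes called with DAPT alone, Gapdh (-0.27 ± 0.07, adjusted p = 0.0061), Ldha (-0.31 ± 0.06, adjusted p = 5.0e-04) and Eno3 (-0.53 ± 0.15, adjusted p = 0.0086) differed. The difference of Pkm did not pass (-0.16 ± 0.08, adjusted p = 0.11), and that of Eno3 did not hold under every processing alternative. Tpi1, the enzyme gene that fell with both drugs, gave 0.13 ± 0.06 (95% interval 0.01 to 0.25, adjusted p = 0.078), which did not pass.

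The DAPT response was above the shHdac3 response for 16 of 35 members, the nearly empty Eno1 row included, and below it for 5 (over all genes 43.8% passed in either direction, 20.0% above and 23.8% below). The 5 were Gapdh, Pgam1, Eno3, Pkm and Ldha, all at the later steps of glycolysis or at lactate, where Eno2, Ldhb and Slc16a3 were among those above and Pgk1 did not pass. Ldha differed by -0.46 ± 0.06 (95% interval -0.59 to -0.33, adjusted p = 2.2e-06). Ankrd37 differed by 1.71 ± 0.10 (95% interval 1.49 to 1.92, adjusted p = 4.5e-12), Vegfa by 0.96 ± 0.07 (95% interval 0.82 to 1.10, adjusted p = 6.9e-11) and P4ha1 by 0.61 ± 0.06 (95% interval 0.49 to 0.72, adjusted p = 6.8e-09). Slc16a3 differed by 0.96 ± 0.11 (95% interval 0.74 to 1.18, adjusted p = 9.6e-08) and Slc2a1 by 0.53 ± 0.07 (95% interval 0.40 to 0.67, adjusted p = 4.9e-07). The response of these genes was lower with the hairpin, and that of the 5 late genes was lower with DAPT. The DAPT response was also above that of the hairpin for Gpi1 (0.29 ± 0.06, adjusted p = 5.7e-04), Pfkm (0.30 ± 0.06, adjusted p = 3.8e-04) and Ldhb (0.19 ± 0.06, adjusted p = 0.021). Here too the Ldhb difference did not hold under every processing alternative. For Slc16a1, the member that rose with the hairpin, the difference did not pass (-0.11 ± 0.06, adjusted p = 0.13). No difference passed for Hk2, at 0.005 ± 0.06 (95% interval -0.12 to 0.13, adjusted p = 0.96), for Hk1, at 0.01 ± 0.06 (95% interval -0.12 to 0.13, adjusted p = 0.95), or for Hif1a, at 9.8e-05 ± 0.06 (95% interval -0.13 to 0.13, adjusted p = 1.0).

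Control libraries of the 3 experiments were not at the same level for these genes. After scaling all 12 libraries together, Bnip3 was 4.90 times higher in the DMSO controls of the DAPT experiment than in those of the apicidin experiment, and 6.51 times higher than with the scrambled hairpin. For Slc2a1 these ratios were 3.32 and 3.57, for Slc16a3 2.09 and 3.83, for Ero1l 2.98 and 3.12, for Hk2 2.20 and 3.03, and for Egln1 2.10 and 2.80. Ratios of Hif1a were near 1, at 1.27 and 1.16, as were those of Vegfa, at 0.985 and 0.908, and Ankrd37, at 0.964 and 0.913. Above the 97.5th percentile of 12110 genes lay 7 of 34 members for the first ratio and 13 of 34 for the second. The DAPT experiment was also the most deeply sequenced, and culture state and experiment cannot be told apart here. The part of these starting levels in the size of each response was not tested.

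**Figure D5:**
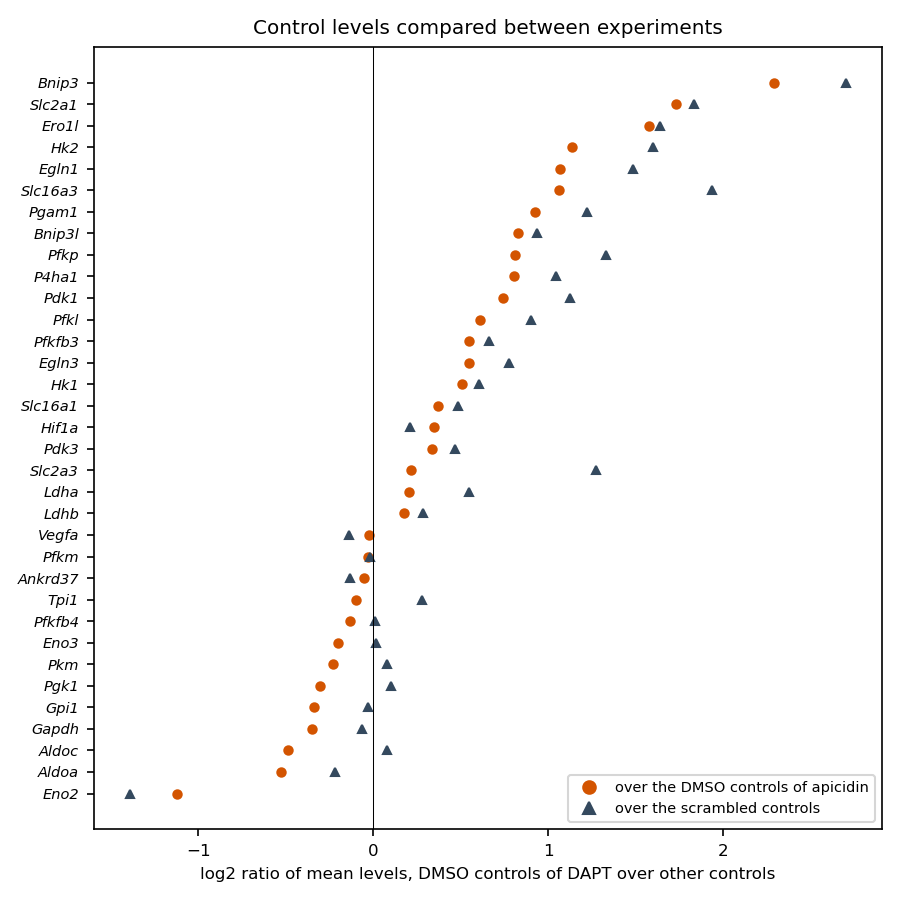
Log2 ratio (x axis) of the mean control level of 34 members in the DMSO controls of the DAPT experiment over the DMSO controls of the apicidin experiment (circles) and over the scrambled controls (triangles), n = 2 each. Bnip3, Slc2a1 and Ero1l lie furthest right among circles, Bnip3, Slc16a3 and Slc2a1 among triangles, and Vegfa and Ankrd37 near 0.

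Per kilobase of exon (GENCODE M21), the control levels spanned a wide range. In the scrambled controls, Gapdh had 51294 and 49956 normalized reads per kb, Pkm 33083 and 33167, Pgk1 28419 and 27399, and Ldha 16675 and 16762. Gpi1, at 10804 and 10961 per kb, was the highest upper enzyme with a length, since Aldoa matched 2 gene records and was given none. Among paralogs, Hk1 had 723 and 718 per kb, against 223 and 231 for Hk2, and Slc2a1 had 374 and 350 per kb, against 163 and 150 for Slc2a3. Slc16a1 had 2318 and 2340 per kb, against 54.4 and 63.5 for Slc16a3. Hk2 and Slc16a3, each the lower of its pair, rose with apicidin and their partners did not pass, while both glucose transporter genes rose. Pfkl was the most highly read phosphofructokinase subunit, at 1560 and 1615 per kb, against 1027 and 1087 for Pfkm and 670 and 639 for Pfkp.

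Neighbouring pathways were followed through lists of genes that are no members. Of 30 further hypoxia genes tested with DAPT, 5 rose and 11 fell (median log2 fold change -0.09; over all genes 20.1% rose and 23.1% fell). With apicidin 5 of 28 rose, near the 18.2% over all genes, and 12 fell, against 19.9% (median -0.16). With shHdac3 1 of 29 rose and 22 fell (median -0.53), where 22.5% of all genes rose and 19.4% fell. In the hairpin experiment Ddit4, an inhibitor of mTORC1, had 2173 and 2012 in shHdac3 libraries, against 4790.1 and 4776 in scrambled libraries (log2 fold change -1.19 ± 0.05, adjusted p = 4.4e-26), and Ak4, an adenylate kinase of mitochondria, had 62.7 and 64.7 in shHdac3 libraries, against 159 and 186 in scrambled libraries (log2 fold change -1.42 ± 0.16, adjusted p = 4.9e-10). Selenbp1 (-1.79 ± 0.20) and the adrenomedullin gene Adm (-1.09 ± 0.19) fell as well, so the hypoxia genes outside the members were mostly lower with the hairpin too. Adm also fell with DAPT (-1.18 ± 0.17), together with the carbonic anhydrase gene Car12 (-1.12 ± 0.15) and Ndrg1 (-0.75 ± 0.04). The 5 that rose with DAPT include the collagen prolyl hydroxylase gene P4ha2, which had 24.6 and 18.5 with DAPT, against 9.23 and 4.90 with DMSO. P4ha2 passed the filter only through its DAPT libraries, so the size of its change is not read further. With apicidin, Selenbp1 (-0.92 ± 0.08), the glycogen branching enzyme gene Gbe1 (-0.91 ± 0.07) and Tpd52 (-0.88 ± 0.19) fell, as did Ak4, at low values (13.1 and 3.64 with apicidin, against 19.3 and 22.9 with DMSO, log2 fold change -1.44 ± 0.46, adjusted p = 0.020). With apicidin several HIF targets among the members rose, and more of the other hypoxia genes fell than rose.

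Genes of pyruvate entry and the tricarboxylic acid cycle mostly fell with DAPT, as the members did. Most of them did not pass with apicidin or with shHdac3. With DAPT 21 of 29 fell and 1 rose (median -0.15), with apicidin 4 fell and 2 rose (median -0.03), and with shHdac3 3 fell and 7 rose (median 0.05). Suclg2, a succinyl-CoA ligase subunit, had 2610.4 and 2484 with DAPT, against 3664 and 3682 with DMSO (log2 fold change -0.53 ± 0.04, adjusted p = 6.5e-10), and Idh3a, an isocitrate dehydrogenase subunit, fell (-0.45 ± 0.04). Suclg2 also fell with apicidin (-0.69 ± 0.05). With the hairpin, Idh3a (0.22 ± 0.05) and Dld (0.31 ± 0.05), a subunit shared by several dehydrogenase complexes, rose, while the pyruvate carboxylase gene Pcx fell (-0.82 ± 0.06). Pdk2, a further pyruvate dehydrogenase kinase gene at low levels, rose with DAPT (0.66 ± 0.18) and fell with the hairpin (-0.85 ± 0.23). Over all genes 23.1% fell and 20.1% rose with DAPT, and 19.9% fell and 18.2% rose with apicidin. With the hairpin 22.5% of all genes rose, close to the share of this list, and 19.4% fell.

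In the pentose phosphate pathway, 4 of 8 genes fell and 0 rose with DAPT, 5 fell and 1 rose with apicidin, and 1 fell and 2 rose with shHdac3. Over all genes 23.1% fell and 20.1% rose with DAPT, 19.9% fell and 18.2% rose with apicidin, and 19.4% fell and 22.5% rose with shHdac3. The share of this list that rose with shHdac3 was near the share over all genes. Transketolase, Tkt, had 24682 and 25037 with DAPT, against 32218 and 31139.6 with DMSO (log2 fold change -0.35 ± 0.04, adjusted p = 7.2e-08), also fell with apicidin (-0.25 ± 0.04) and rose with the hairpin (0.18 ± 0.05). Rpia, the ribose 5-phosphate isomerase gene, fell with DAPT (-0.54 ± 0.06). Among other glycolytic isoenzymes and regulators, 7 of 18 fell and 4 rose with DAPT, 5 fell and 1 rose with apicidin, and 2 fell and 4 rose with shHdac3. For this list, the shares that rose with DAPT and with shHdac3 were near those over all genes. Fbp1, which encodes fructose 1,6-bisphosphatase and runs the phosphofructokinase step backwards, had 532 and 533 with DAPT, against 2289.9 and 2315 with DMSO (log2 fold change -2.11 ± 0.05, adjusted p = 1.0e-18). With apicidin Fbp1 had 547 and 557 with apicidin, against 1227 and 1282 with DMSO (log2 fold change -1.18 ± 0.06, adjusted p = 6.1e-11), and with the hairpin 3132 and 2831 in shHdac3 libraries, against 2103 and 1998 in scrambled libraries (log2 fold change 0.54 ± 0.05, adjusted p = 1.2e-12). Fbp1 therefore fell with both drugs and rose with the hairpin. Slc2a4, the gene of the insulin-responsive transporter GLUT4, was low and rose with DAPT (0.78 ± 0.17) and apicidin (0.73 ± 0.21).

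Of 21 regulators of glucose use and growth tested, 4 rose and 5 fell with DAPT, close to the shares over all genes (20.1% higher and 23.1% lower). With apicidin 6 rose and 2 fell (18.2% and 19.9% over all genes), and with shHdac3 8 rose and 4 fell (22.5% and 19.4% over all genes). Txnip, which removes GLUT1 from the cell surface and is itself induced by glucose, had 26773 and 27239 with DAPT, against 18012 and 18324 with DMSO (log2 fold change 0.57 ± 0.04, adjusted p = 1.3e-11). With apicidin Txnip had 21342 and 21115 with apicidin, against 12453 and 12444 with DMSO (log2 fold change 0.77 ± 0.04, adjusted p = 6.2e-10), and with the hairpin 5603 and 5652 in shHdac3 libraries, against 11286 and 11933 in scrambled libraries (log2 fold change -1.04 ± 0.05, adjusted p = 2.3e-24). Txnip thus rose with both drugs and fell with the hairpin, in which Slc2a1 fell too. Myc, which binds E-boxes of glycolytic genes, had 5061 and 5337 with DAPT, against 9342 and 9047 with DMSO (log2 fold change -0.82 ± 0.04, adjusted p = 7.3e-14), fell with apicidin (-0.20 ± 0.04; difference between responses -0.64 ± 0.06, adjusted p = 2.6e-08), and did not pass with the hairpin (0.05 ± 0.05, adjusted p = 0.39). Prkaa2, a catalytic subunit of AMP-activated kinase, rose with DAPT (1.32 ± 0.09). Irs2 (-1.02 ± 0.08) and Igf1r (-0.63 ± 0.06), which carry insulin and growth factor signals, fell with the hairpin and rose with apicidin (0.29 ± 0.08 for Irs2 and 0.43 ± 0.07 for Igf1r).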

How the data were processed

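Stranded total RNA libraries depleted of ribosomal RNA (per the labels' protocols) numbered 12, in 6 groups of 2 taken from the submitters' titles. Per the submitters' processing notes, the build was mm9 and FastQC, Bowtie2, TopHat and DESeq2 were used, roles and versions unstated. No source used here names the read counter, the annotation or the strand option. The authors deposited 1 table per experiment with 23366 gene symbols. Per the file headers, the columns are a normalized signal for each of 4 libraries and their mean, the log2 fold change and its error, a test score (stat), and p-values. Every deposited signal is a whole number of reads over the size factor of its library (within 1e-06, relative), and reads were recovered from it.

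The design named limma for the case that the tables hold normalized values, which they do. The test was limma 3.58.1 (R 4.3.3) with a trend on log2(value + 1), two-sided, for genes reaching 10 in 2 or more of the 4 libraries compared, with Benjamini-Hochberg adjustment over all genes tested. The pseudocount understates changes at low values. A difference between responses was a contrast in limma over 12 libraries, with recomputed size factors. Scripts were tested on simulated data. Replicates of a group differed by more than sampling noise.

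Alternatives were pseudocounts of 0.5 and 5, no filter, a filter of 50, TMM and upper-quartile factors, size factors excluding histone genes and Rn45s, edgeR 4.0.16, DESeq2 1.42.0, the authors' deposited log2 fold changes and adjusted p-values, a replicate block, a fit of all 12 libraries, and leaving out each library. Members and lists were chosen with earlier results of these data known. Named genes are the entry and rate-setting steps, the 6 members with the largest called change per comparison, the 6 with the smallest adjusted p per difference, and up to 4 genes per further list. Vegfa and Ankrd37 among the differences, and genes given for contrast, were chosen after their values were seen. Promoter sequences are from RefSeq (GRCm38.p6), where 33 of 35 members matched, with the 250 bases before the start searched on both strands. Exon lengths are from GENCODE M21.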

Additional observations from a re-analysis of the deposited data

How the results depend on the processing

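Most member counts kept within 1.5 times their value under every alternative, and the exceptions were small counts. The single rise with DAPT became 0 with no filter, a filter of 50, edgeR, DESeq2, the fit of all 12 libraries and the authors' deposited table, and 3 with upper-quartile factors. The 4 falls with apicidin became 2 with DESeq2 and 2 in the authors' deposited table. The single rise with shHdac3 became 0 with no filter, upper-quartile factors, size factors excluding histone genes and Rn45s, DESeq2, the authors' deposited table and the replicate block. Among differences, the count of members with a DAPT response above that of apicidin was 0, and 1 with upper-quartile factors, edgeR or DESeq2, and that of members below in apicidin minus shHdac3 was 1, and 3 with DESeq2. Leaving out 1 library at a time gave 20 to 24 members lower and 0 to 1 higher with DAPT, 11 to 13 higher and 1 to 3 lower with apicidin, and 21 to 22 lower and 0 to 1 higher with shHdac3. For DAPT minus apicidin it gave 20 to 22 below and 0 to 1 above, for DAPT minus shHdac3 12 to 16 above and 5 to 6 below, and for apicidin minus shHdac3 20 to 23 above and 1 below. The cause of these changes was not tested.

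Held under every alternative were the calls of 18 of 23 members with DAPT, 12 of 16 with apicidin, 21 of 24 with shHdac3, 20 of 22 in DAPT minus apicidin, 16 of 20 in DAPT minus shHdac3 (Eno1 left out) and 21 of 23 in apicidin minus shHdac3. The differences lost under some alternative were Eno3 and Pfkl in DAPT minus apicidin. In DAPT minus shHdac3 they were Ero1l, Ldhb, Pdk1 and Slc2a3, and in apicidin minus shHdac3 Bnip3l and Ldhb. Members near 0 that did not pass changed sign (log2 fold change). With DAPT, P4ha1 was 0.023 with upper-quartile factors and -0.034 to 0.0040 without 1 library, and Slc16a1 was -0.0014 in the fit of all 12 libraries and -0.031 to 0.042 without 1 library. With apicidin, Pgk1 was -0.020 to 0.0036 without 1 library. With shHdac3, Bnip3l was -0.0067 with upper-quartile factors and -0.010 to 0.076 without 1 library, and Pdk3 -0.086 to 0.030 without 1 library. Pkm was -0.039 with upper-quartile factors, -7.3e-05 with histone genes excluded, -0.0017 with edgeR and -0.017 to 0.018 without 1 library.

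Over all genes, DESeq2 called fewer: 1645 higher and 2168 lower with DAPT (limma 2584 and 2962), 1136 and 1329 with apicidin (limma 2265 and 2481), and 1694 and 1267 with shHdac3 (limma 2811 and 2417). With upper-quartile factors the share of higher calls was 56.5% with DAPT (main scaling 46.6%). Replicate numbers are not stated to pair libraries, and deviations of same-numbered libraries correlated at 0.02 (DAPT), 0.04 (apicidin) and 0.01 (shHdac3). With the replicate block, genes higher and lower numbered 2826 and 3152 with DAPT, 2294 and 2517 with apicidin and 2861 and 2466 with shHdac3. Groups of 2 libraries limit all of these. Depth limits the genes under about 100 normalized reads, such as Eno2 and Aldoc. The standard errors of Eno2 and Aldoc were the largest among members, Eno1 left out.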
